A study of Mus musculus with 8 samples.

Results

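The zinc finger genes described here are the 156 numbered Zfp genes that were well expressed in the mouse amygdala. They were chosen by symbol (Zfp and a number) and by their mean over all 8 libraries, which had to be at least 6 on the log2 scale with values that varied, out of 24982 genes in the table. Of 361 numbered Zfp genes, 12 had 1 constant value, 36 had a mean under 3 and 157 had a mean from 3 to under 6. The other 37 symbols that start with Zfp were not taken. Since the mean level chose the members, their high level is a description and not a result.

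Male C57BL/6 mice drank plain water or water with 0.03% aspartame, an artificial sweetener, and the question was which genes differ between them in the amygdala, a part of the brain that handles fear. Each group had 4 mice, aged 187 to 189 d, with 1 library per mouse from the microdissected amygdala. Ages were 187, 189, 187 and 189 d in water 1 to 4 and 188, 189, 187 and 187 d in aspartame 1 to 4. Without aspartame 2, mice of 189 d were in the plain water group only, so that age was not balanced between the groups. The labels give an exposure of 18 wk, whereas the paper's methods give a shorter one for these libraries. The labels call the mice group housed, whereas the methods have them housed in pairs. Tissue was taken after behavioral tests, and in the study some mice were injected with saline and then diazepam before such tests. Whether the mice sequenced were among those injected is not given in the sources used here. Expression is given as rlog, a log2 count scaled for library size in which weakly counted genes are drawn toward their mean, so that differences of low genes are understated. The table holds no counts and the depth is unknown.

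Zinc finger proteins of the C2H2 type hold a zinc ion between a pair of cysteines and a pair of histidines in each finger, and tandem fingers read DNA, or in some proteins RNA. Many carry a KRAB domain near their start. This domain recruits TRIM28, which brings SETDB1, HP1 proteins and the NuRD remodeler, and the result is heterochromatin over retroelements and some imprinted genes. KRAB genes lie in clusters that grew by duplication, and their fingers are close copies of each other. Zinc finger genes without the domain include activators, insulator proteins, RNA binding proteins and partners of chromatin complexes.

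Coding sequences of the members from GENCODE M21 were searched for the finger and for a KRAB pattern. A KRAB pattern was found in 78 members and not in the other 78, and these are called KRAB members and members without KRAB. The pattern can miss a KRAB domain, so that some members of the second group may carry one. The KRAB members had a median of 12 fingers and a median transcript GC content of 42.2%, against 7 fingers and 48.1% without KRAB. *Zfp142* held the most, with 36 fingers. No finger was found in 2 members, *Zfp330* and *Zfp365* (named after their values were seen). The finger pattern below is shown for the pair of members that fell most and the pair that rose most, because the pairs differ in base composition, which is taken up again with the results. Each line is the DNA of 1 finger on GRCm38 from 5′ to 3′, the first that lies whole in 1 exon, and the capitals mark the codons of the 2 cysteines and the 2 histidines.
*Zfp157* (chr5:138456094-138456156, plus strand): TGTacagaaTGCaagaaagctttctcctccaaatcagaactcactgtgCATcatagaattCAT
*Zfp846* (chr9:20593188-20593256, plus strand): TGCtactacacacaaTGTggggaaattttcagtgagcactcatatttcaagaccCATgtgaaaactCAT
*Zfp523* (chr17:28201061-28201129, plus strand): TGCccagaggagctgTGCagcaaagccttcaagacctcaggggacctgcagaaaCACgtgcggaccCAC
*Zfp651* (chr9:121763960-121764025, plus strand): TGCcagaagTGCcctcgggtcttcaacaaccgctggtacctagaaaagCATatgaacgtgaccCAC
The fingers of *Zfp157* and *Zfp846* are 38.1% and 39.1% G and C, whereas those of *Zfp523* and *Zfp651* are 60.9% and 53.0%. Over all members with such a finger, the median was 41.3% for KRAB members and 49.6% for members without KRAB.

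At the edge of the rule, *Zfp141*, *Zfp81* and *Zfp65* had means of 6.01, 6.01 and 6.00, and *Zfp830*, *Zfp652* and *Zfp868*, at 5.98, 5.97 and 5.97, fell outside. At the other end, the 5 members with the highest mean rlog were *Zfp365* (10.95), *Zfp106* (10.54), *Zfp445* (10.36), *Zfp207* (9.79) and *Zfp638* (9.39). With the log2 of the transcript length in kb subtracted, so that genes can be compared, their mean levels were 8.86, 7.36, 7.73, 9.15 and 6.76 on the log2 scale, and the median member was at 5.04. *Zfp106* encodes an RNA binding protein that motor neurons need, *Zfp207* a kinetochore and spindle protein, and *Zfp638* a protein that silences unintegrated retroviral DNA. The SD of these 5 members between plain water libraries was 0.11 to 0.14. The rlog of *Zfp365* was 10.84, 11.16, 10.93 and 10.90 in water 1 to 4 and 10.75, 11.03, 10.91 and 11.06 in aspartame 1 to 4, so that the groups overlapped from 10.84 to 11.06.

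One aspartame library stood apart in these genes. Aspartame 2 was the highest of the 8 libraries in 93 of 156 members (59.6%), whereas it was the highest in 28.1% of all 12870 genes tested. It was the highest in 74.4% of the KRAB members and in 44.9% of the members without KRAB. The median member lay 0.223 above its own mean in aspartame 2 on the log2 scale. In the other libraries this value was -0.084, 0.023, 0.028 and 0.032 in water 1 to 4, and -0.099, 0.019 and -0.111 in aspartame 1, 3 and 4. Aspartame 2 therefore lay on one side of the plain water libraries, and aspartame 1 and 4 on the other, with water 1. On the first principal component of all genes, which held 55.7% of the variance, aspartame 2 was at 27.6 and aspartame 4 at -24.0, and the plain water libraries were between -4.3 and 10.3. The study left 1 aspartame sample out after principal component analysis without naming it, and aspartame 2 is taken as that sample here. Values are given first for the other 7 libraries and then for all 8.

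**Figure D1:**
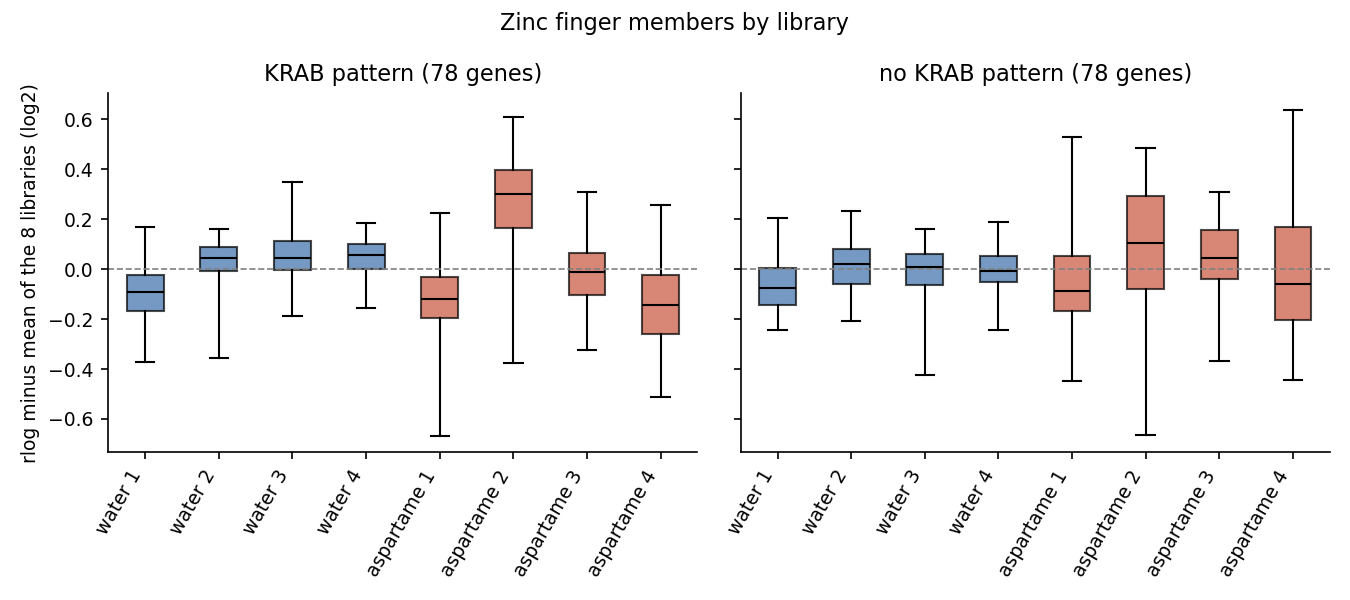
The rlog of each member minus its mean over the 8 libraries (y axis, log2) is shown for each library (x axis), on the left for 78 KRAB members and on the right for 78 members without KRAB. Boxes span the quartiles, lines in boxes are medians and whiskers reach the lowest and highest member, and aspartame 2 has the highest median in both panels.

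Members in which aspartame 2 was farthest from the plain water mean were *Zfp160*, *Zfp943*, *Zfp788* and *Zfp335*. *Zfp943*, a KRAB gene, had an rlog of 7.14, 7.32, 7.35 and 7.36 in water 1 to 4 and of 7.06, 7.86, 6.94 and 6.99 in aspartame 1 to 4. Its aspartame libraries thus lay on both sides of plain water, with aspartame 2 higher by 0.57 than the plain water mean and the other 3 below every plain water library. *Zfp160* was at 7.21 and *Zfp788* at 7.85 in aspartame 2, higher than the plain water mean by 0.57 and 0.54. *Zfp335*, which lacks a KRAB pattern, was at 5.65 in that library, or 0.54 below the plain water mean. No test was made of these values, since a single library gives no spread.

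Without aspartame 2, limma called 12 of the 156 members at an adjusted p under 0.05 (7.69%), of which 7 were higher and 5 lower with aspartame. Over all genes tested 8.81% were called, 6.1% higher and 2.71% lower, so that the share of members called was near that of genes in general. All 7 members that rose lacked a KRAB pattern, and 4 of the 5 that fell carried one. The rises were of 0.30 to 0.60 and the falls of 0.33 to 0.40 on the log2 scale. The largest rise was 1.52-fold. In bulk tissue, fewer cells of a type and less RNA per cell cannot be told apart.

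*Zfp523*, the mouse gene for ZNF76 and a relative of the promoter activator *Zfp143*, rose most. It lies on chromosome 17 from 28177129 to 28205886 (GRCm38), and its transcript has the highest GC content of all members, 61.2%. Its rlog was 6.96, 6.83, 6.80 and 6.76 in water 1 to 4, and 7.53, 7.16 and 7.64 in aspartame 1, 3 and 4. The groups did not overlap, and the difference was 0.60 (SE 0.11, limma adjusted p = 0.0130). Aspartame 2 was at 6.34, below all plain water libraries. *Zfp651*, on chromosome 9 from 121759330 to 121771742, was at 6.73, 6.59, 6.29 and 6.60 in plain water and at 7.09, 6.95 and 7.27 with aspartame. This was a rise of 0.55 (SE 0.12, limma adjusted p = 0.0183), and aspartame 2 was again the lowest library, at 6.18. *Zfp362*, on chromosome 4 from 128773088 to 128806045, was at 6.22, 6.10, 6.02 and 6.15 in plain water and at 6.70, 6.44 and 6.81 with aspartame. It rose by 0.53 (SE 0.10, limma adjusted p = 0.0136) and was at 5.81 in aspartame 2. *Zfp142*, the member with most fingers, on chromosome 1, averaged 6.86 ± 0.057 in the plain water libraries (SD, n = 4) and 7.23 ± 0.080 in aspartame 1, 3 and 4 (SD, n = 3), and was thus higher by 0.37 (limma adjusted p = 0.0212), and was at 6.61 in aspartame 2. In all 4 of these genes aspartame 2 lay below every plain water library, on the opposite side from aspartame 1, 3 and 4. Without water 3 their calls were lost (limma adjusted p of 0.0521 for *Zfp523* to 0.0837 for *Zfp142*). Without aspartame 4 they were lost too (0.0522 for *Zfp523* to 0.073 for *Zfp651*). Those of *Zfp651* and *Zfp142* were also lost without water 4 (0.0542 and 0.0714), and that of *Zfp142* without water 2 (0.0545).

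The other 3 members that rose have roles in development or in chromatin complexes. *Zfp335* encodes a cofactor of nuclear receptors that neural progenitors need. Its rlog was 6.40, 6.17, 6.12 and 6.10 in water 1 to 4 and 6.75, 6.36 and 6.74 in aspartame 1, 3 and 4, so that aspartame 3 lay below water 1. The difference was 0.42 (SE 0.12, limma adjusted p = 0.0472). *Zfp516*, a factor of brown fat development in the mouse, was at 5.93, 5.91, 5.78 and 5.96 in plain water and at 6.31, 6.27 and 6.32 with aspartame, which was a rise of 0.41 (SE 0.084, limma adjusted p = 0.0176). Aspartame 2 was at 5.81, within the plain water range. *Zfp609*, which binds the cohesin loader NIPBL and Integrator, was at 8.19, 8.21, 8.28 and 8.18 in plain water and at 8.39, 8.47 and 8.68 with aspartame. It rose by 0.30 (SE 0.084, limma adjusted p = 0.0481), and aspartame 2 was the lowest library, at 8.10. These 3 calls too were lost without water 3, water 4 or aspartame 4, that of *Zfp335* also without water 2 or aspartame 1 and that of *Zfp609* also without water 1 or water 2. The adjusted p then reached 0.156 for *Zfp335*, 0.0734 for *Zfp516* and 0.145 for *Zfp609*.

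A set of 4 KRAB genes and 1 RNA binding gene fell. *Zfp157*, with 11 fingers, lies on chromosome 5 from 138441468 to 138460694. Its rlog was 7.11, 7.22, 7.30 and 7.25 in water 1 to 4 and 6.88, 6.90 and 6.69 in aspartame 1, 3 and 4. The groups did not overlap, and the difference was -0.40 (SE 0.087, limma adjusted p = 0.0223). *Zfp846*, with 14 fingers, on chromosome 9 from 20581291 to 20605409, was at 6.12, 6.35, 6.57 and 6.29 in plain water and at 5.92, 6.05 and 5.84 with aspartame. It fell by 0.40 (SE 0.11, limma adjusted p = 0.0449), with water 1 close to aspartame 3. *Zfp940*, on chromosome 7, averaged 6.61 ± 0.031 in the plain water libraries (SD, n = 4) and 6.27 ± 0.098 in the aspartame libraries (SD, n = 3), which differ by -0.34 (limma adjusted p = 0.0299). *Zfp9*, on chromosome 6, had means of 7.07 ± 0.031 (SD, n = 4) and 6.73 ± 0.14 (SD, n = 3), which also differ by -0.34 (limma adjusted p = 0.0361). In all 4 genes aspartame 2 was the highest library, at 7.62 for *Zfp157*, 6.62 for *Zfp846*, 6.86 for *Zfp940* and 7.31 for *Zfp9*.

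*Zfp346* differed from the other members that fell. It encodes a protein whose fingers bind double-stranded RNA, lacks a KRAB pattern and has a transcript of high GC content, 55.0%. Its rlog was 6.70, 6.66, 6.64 and 6.74 in water 1 to 4, and 6.34, 6.61, 6.32 and 6.40 in aspartame 1 to 4. All 4 aspartame libraries were thus below all plain water libraries, aspartame 2 by the least. The difference was -0.33 (SE 0.078, limma adjusted p = 0.0274) in 7 libraries and -0.27 (SE 0.094, limma adjusted p = 0.903) in all 8. The calls of these 5 genes were lost without water 2 (limma adjusted p of 0.0575 to 0.101) or water 3 (0.0824 to 0.136). They were also lost without water 4 (0.0807 to 0.122) or aspartame 4 (0.0567 to 0.138). Those of *Zfp846*, *Zfp9* and *Zfp346* were lost without aspartame 1 as well (0.0942, 0.0574 and 0.056), and that of *Zfp9* without water 1 (0.0526).

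**Figure D2:**
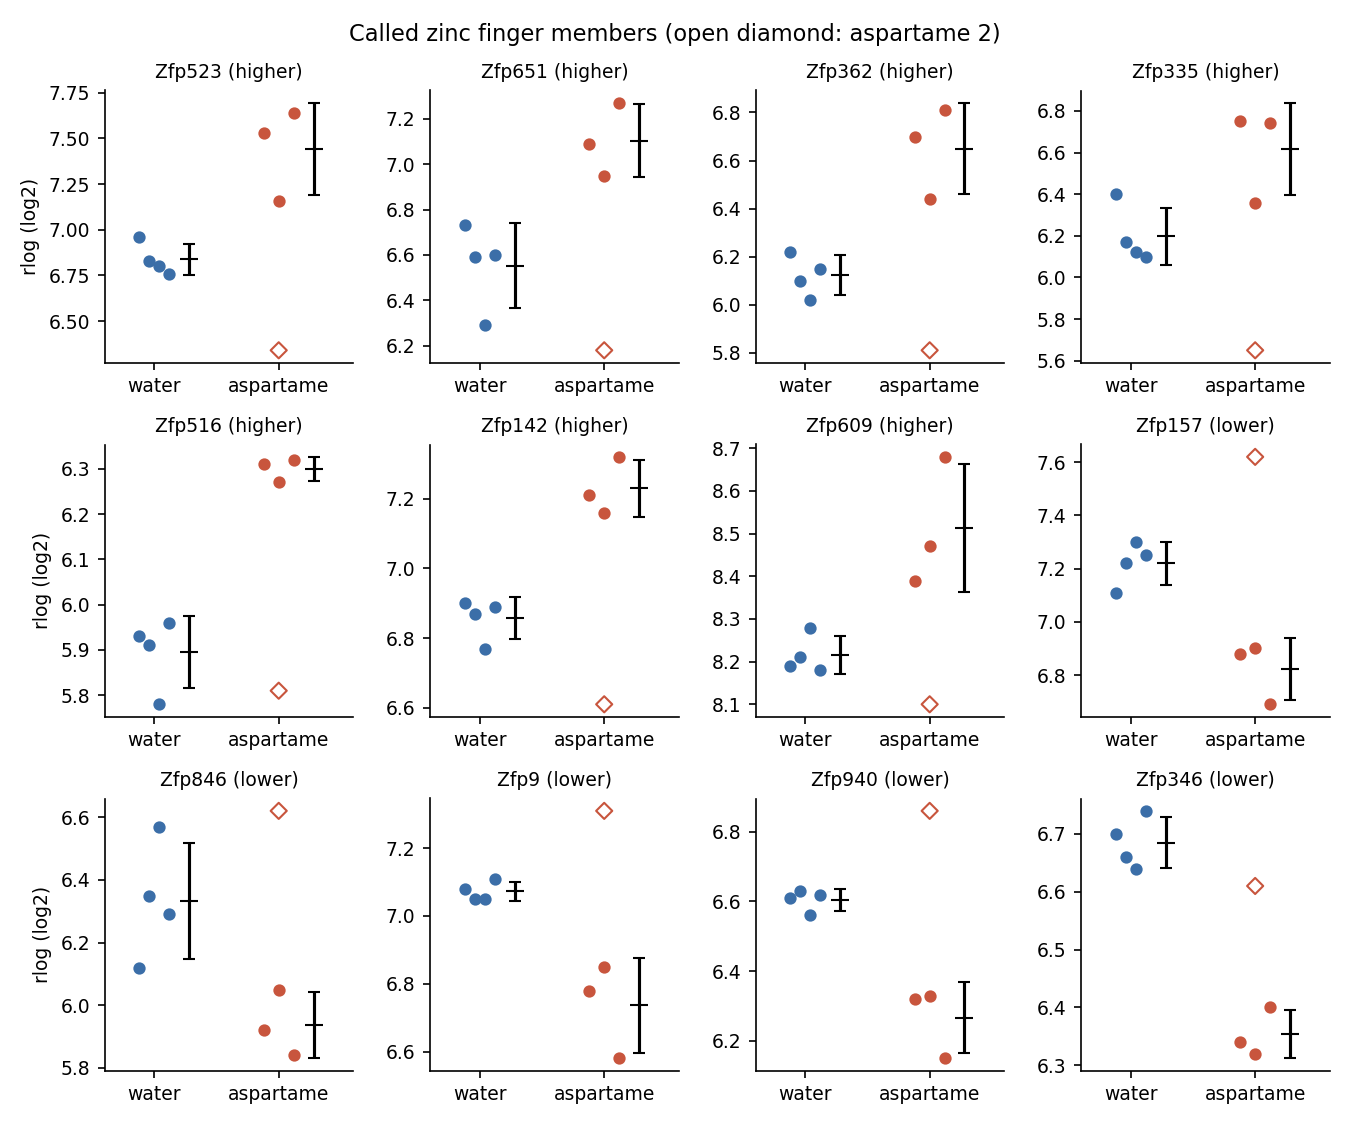
Each panel shows the rlog (y axis, log2) of 1 called member in plain water (blue, n = 4) and aspartame (red, n = 3), with the mean and SD of each group in black and aspartame 2 as an open diamond. In *Zfp523* the diamond is at 6.34, below plain water, and in *Zfp157* at 7.62, above it, whereas in *Zfp346* it is at 6.61, between the groups.

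With all 8 libraries, limma called 0 of 156 members and 0.0% of 12861 genes. Unadjusted p-values from limma were under 0.05 for 3 members, beside 4.3% of all genes. These were *Zfp346* (-0.27), *Zfp622* (-0.22) and *Zfp516* (0.28), each with an adjusted p of 0.903 from limma. All 12 members called in 7 libraries kept the sign of their difference, but 7 of the 8 libraries are the same. The difference of *Zfp523* was 0.33 (SE 0.23, limma adjusted p = 0.903) and that of *Zfp157* was -0.20 (SE 0.17, limma adjusted p = 0.904). With libraries weighted by how well they fitted their group, limma called 3 members, *Zfp523* (0.57, adjusted p = 0.0390), *Zfp362* (0.48, adjusted p = 0.0397) and *Zfp346* (-0.34, adjusted p = 0.0440), beside 3.44% of all genes (2.88% higher and 0.568% lower). *Zfp622*, whose product works in maturation of the large ribosomal subunit, was at 6.46, 6.40, 6.38 and 6.23 in plain water and at 6.15, 6.22, 6.18 and 6.04 with aspartame. Its aspartame libraries were all below plain water, the nearest by a small margin, and its difference was -0.25 (limma adjusted p = 0.100) in 7 libraries and -0.22 (SE 0.091) in all 8.

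Groups that do not overlap can be counted without a model. In 7 libraries, aspartame was above all plain water libraries in 11 of 156 members and below them in 25 of 156. Over all 12870 genes it was above in 1410 (11.0%) and below in 1545 (12.0%). With all 8, it was above in 1 member and below in 3, beside 0.995% and 2.37% of all genes. These 4 were *Zfp407*, higher by 0.20 (limma adjusted p = 0.903), and *Zfp346*, *Zfp622* and *Zfp1*, the last lower by 0.12 (difference -0.12, limma adjusted p = 0.903). *Zfp407* and *Zfp1* were named after their values were seen.

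Most members lay slightly below plain water in the 7 libraries. The difference was below 0 in 104 of 156 members (66.7%), with a median of -0.077, whereas it was below 0 in 50.9% of all genes with a median of -0.004. The median was -0.096 for KRAB members, 61 of which were below 0, and -0.040 for members without KRAB, 43 of which were below 0. With all 8 libraries the median of the members changed sign, to 0.011, since aspartame 2 was higher than the plain water mean in 120 of them. The median member had an SD of 0.094 in plain water, of 0.13 in 3 aspartame libraries and of 0.22 in 4.

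The differences went with the GC content of the transcript. Across the 156 members, the difference in 7 libraries and GC content had a Pearson correlation of 0.61 and a Spearman correlation of 0.50. Members share libraries and are not independent, and the same Pearson correlation was 0.53 over 12787 genes. Within single libraries, the Spearman correlation of the deviation from the mean of the gene with GC content was 0.59, -0.39, -0.47 and -0.23 over the members in water 1 to 4, and 0.55, -0.87, 0.19 and 0.60 in aspartame 1 to 4. Members rich in G and C were thus high in water 1, aspartame 1 and aspartame 4 and low in aspartame 2. The number of fingers did not go with the difference (Pearson 0.05, Spearman -0.03).

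The members were split into 4 equal bins by GC content. In the lowest bin (35.3 to 40.3%), 36 of 39 were below 0 and none was called, with a median of -0.095. In the highest bin (49.7 to 61.2%), 29 of 39 were above 0, with a median of 0.104, and all 7 rises and the fall of *Zfp346* were among them. Aspartame 2 was the highest library in 37 of 39 members of the lowest bin and the lowest library in 17 of 39 of the highest bin, beside 28.3% of all genes in which it was the lowest. Both kinds of member were also compared within ranges of GC content, up to 45% and over it. Up to 45% GC the median difference was -0.124 in 53 KRAB members and -0.095 in 28 members without KRAB. Over 45% it was -0.043 in 25 KRAB members and 0.060 in 50 members without KRAB, and aspartame 2 was the highest library in 32.0% and 22.0% of them. Median GC content was 40.3% and 40.9% in the lower range, but 48.4% and 51.0% in the upper one. In the upper range GC content was therefore not held equal.

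After a smooth dependence on GC content and transcript length had been taken out of each library, limma called 5 members in the 7 libraries, beside 1.64% of all genes (1.02% higher and 0.618% lower). *Zfp362* was higher by 0.33 (adjusted p = 0.0469) and *Zfp740* by 0.35 (adjusted p = 0.0390). *Zfp846* (-0.47, limma adjusted p = 0.0305), *Zfp346* (-0.35, limma adjusted p = 0.0427) and *Zfp157* (-0.34, limma adjusted p = 0.0409) were lower. The difference of *Zfp523* was 0.31 (limma adjusted p = 0.0522) and that of *Zfp335* was 0.09 (limma adjusted p = 0.522). The median difference became -0.018 in KRAB members and -0.012 in members without KRAB, with 85 of 156 below 0. Pearson correlation with GC content was then 0.10. This step also removes any change by aspartame that goes with GC content, and what caused the trend was not tested.

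**Figure D3:**
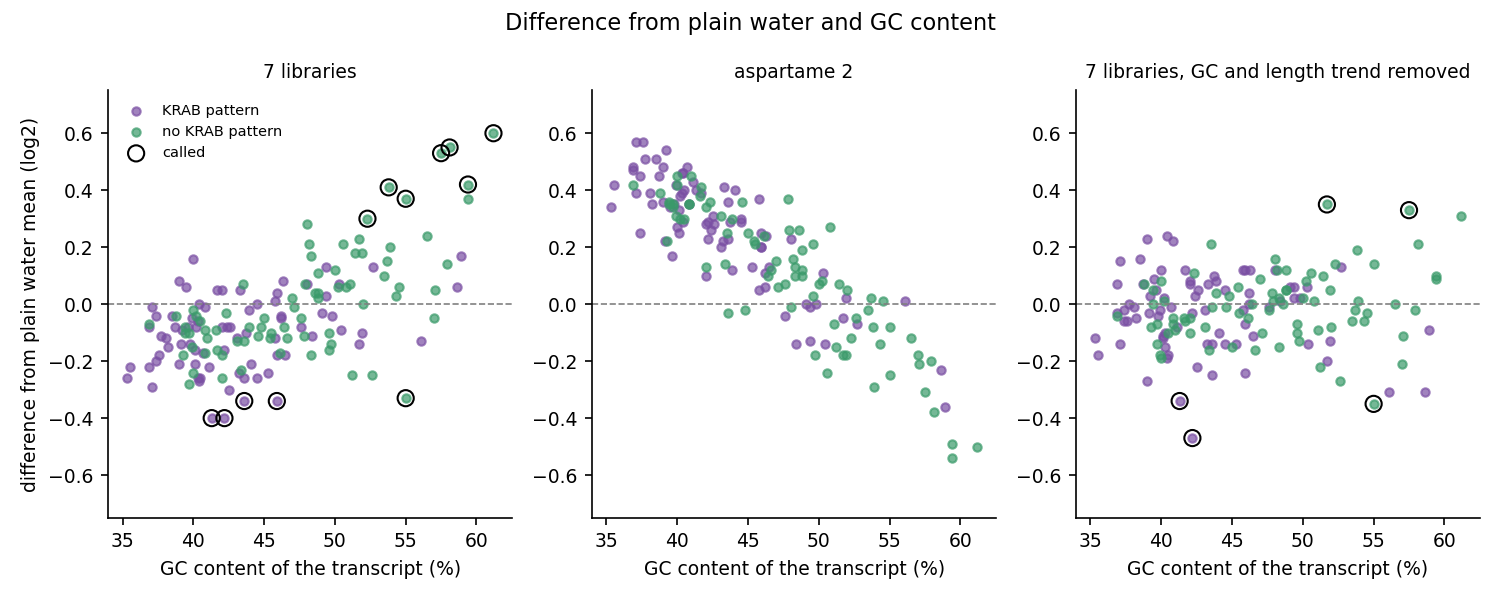
Each point is a member, with transcript GC content on the x axis and a difference from the plain water mean (log2) on the y axis, for aspartame 1, 3 and 4 (left), aspartame 2 alone (middle) and aspartame 1, 3 and 4 after the dependence on GC content and length was taken out of each library (right). Purple points are KRAB members, green points are members without KRAB and circles are called members, and the slope on the left (Pearson 0.61) is opposite in sign to that in the middle and nearly absent on the right (0.10).

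Members with roles known from other work were followed in 5 lists, of which 36 members were measured at this level. These lists, and that of the machinery below, were chosen with earlier results of these data known. Their counts are therefore a description. The 3 that silence imprinted genes or retroelements did not pass the test in either direction. *Zfp445*, which protects imprints together with *Zfp57*, was at 10.11, 10.45, 10.31 and 10.29 in water 1 to 4 and at 10.29, 10.70, 10.46 and 10.28 in aspartame 1 to 4, with a difference of 0.05 (limma adjusted p = 0.765) in 7 libraries. The differences of *Zfp57* and *Zfp932* were 0.01 (limma adjusted p = 0.958) and -0.04 (limma adjusted p = 0.860), and aspartame 2 was the highest library for all 3 genes. For *Zfp932*, 72.6% of the 31-base words of its transcript also occur in transcripts of other genes, so that its value is uncertain.

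Of 10 activators and repressors of general promoters, 0 passed the test in 7 libraries and 2 had an unadjusted p under 0.05 from limma (27.1% of all genes). These were *Zfp131*, a regulator with a BTB domain (-0.28, limma adjusted p = 0.0758), and *Zfp740* (0.23, limma adjusted p = 0.0924). The difference was -0.15 (limma adjusted p = 0.307) for *Zfp148*, which binds GC-rich promoters, and -0.16 (limma adjusted p = 0.316) for *Zfp410*, an activator of *Chd4*. Of 6 neural and developmental regulators, 2 rose, *Zfp335* and *Zfp516*, and 0 fell, beside 6.1% and 2.71% of all genes. After the GC step neither passed the test (limma adjusted p = 0.522 and 0.163). *Zfp462*, which human neural development needs, was at 8.42, 8.71, 8.52 and 8.50 in plain water and at 8.75, 8.52, 8.80 and 8.91 in aspartame 1 to 4, with a difference of 0.28 (limma adjusted p = 0.0631) in 7 libraries. *Zfp189*, a KRAB gene studied in the mouse prefrontal cortex for resilience to stress, had a difference of -0.26 (limma adjusted p = 0.310). Aspartame 1 was at 5.56 and aspartame 3 and 4 at 6.29 and 6.24, and without aspartame 1 the difference was -0.02.

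Of 8 subunits or partners of chromatin complexes, *Zfp609* rose and 0 fell, beside 6.1% and 2.71% of all genes. After the GC step its difference was 0.14 (limma adjusted p = 0.256). *Zfp592*, *Zfp687* and *Zfp532*, which bind each other and the bromodomain protein ZMYND8, had differences of 0.18 (limma adjusted p = 0.289), 0.24 (limma adjusted p = 0.111) and 0.21 (limma adjusted p = 0.168). After the GC step these became 0.05, 0.00 and 0.11. Of 9 RNA binding, ribosome and spindle proteins, *Zfp346* fell and 0 rose, beside 2.71% and 6.1% of all genes. *Zfp598*, a ubiquitin ligase that senses collided ribosomes, was at 6.43, 6.17, 6.06 and 6.10 in plain water and at 6.69, 5.70, 6.19 and 6.82 in aspartame 1 to 4. Its aspartame libraries spanned more than the plain water range on both sides, and the difference in 7 libraries was 0.37 (SE 0.15, limma adjusted p = 0.126). The difference of *Zfp706* was -0.23 (limma adjusted p = 0.188).

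**Figure D4:**
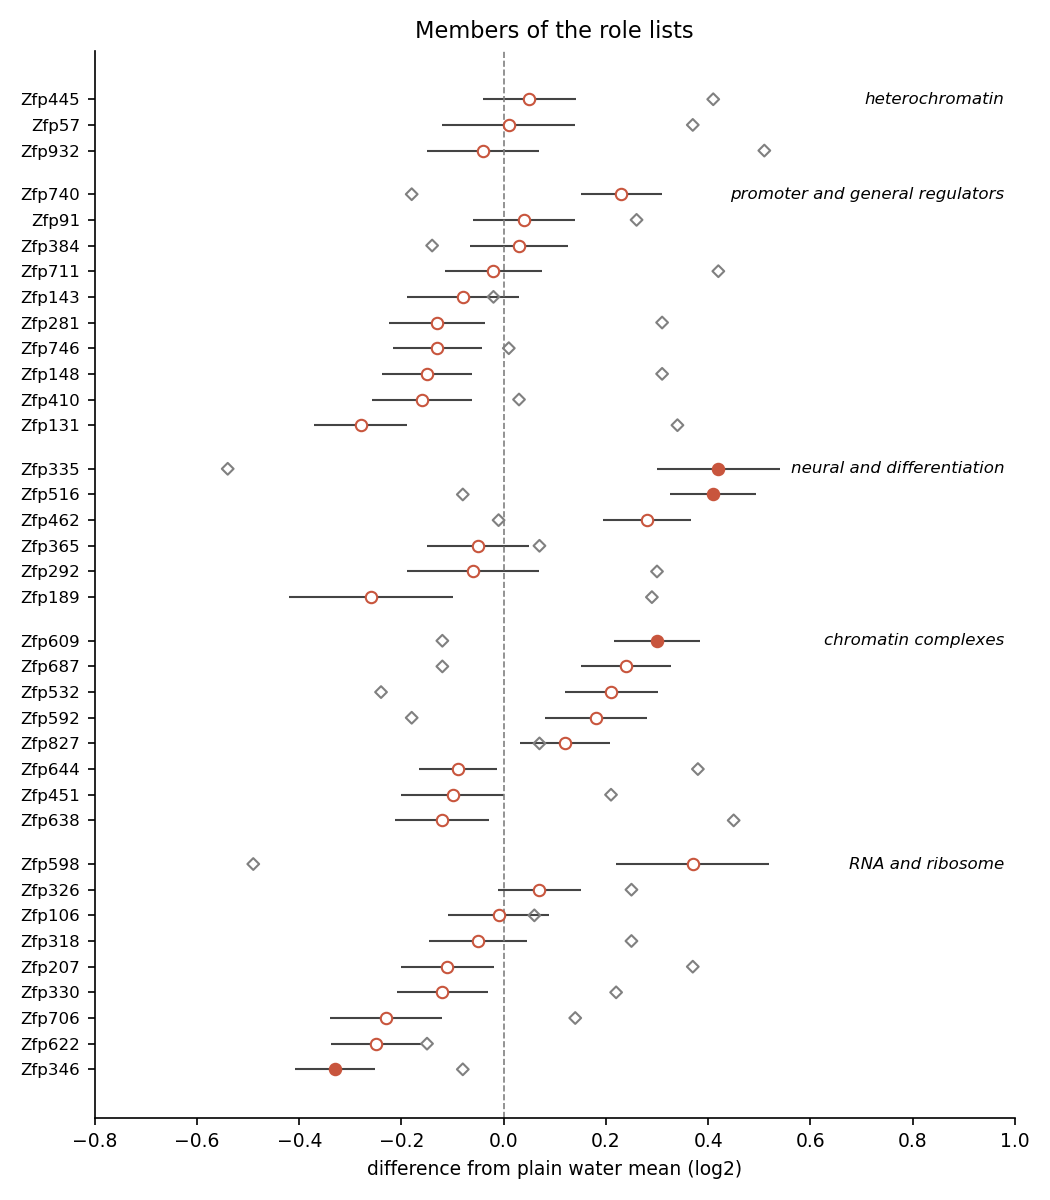
Differences from the plain water mean (x axis, log2) are shown for 36 members of 5 role lists (y axis), as circles with the SE for aspartame 1, 3 and 4 and as grey diamonds for aspartame 2 alone. Filled circles are called members, which were *Zfp335*, *Zfp516*, *Zfp609* and *Zfp346*, and the diamonds of *Zfp335* (-0.54) and *Zfp932* (0.51) lie far from their circles.

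The machinery that KRAB proteins recruit was measured for 27 genes, of which 5 rose and 0 fell in the 7 libraries (6.1% and 2.71% of all genes). The core of it did not pass the test. *Trim28* was at 7.92, 7.59, 7.67 and 7.76 in water 1 to 4 and at 7.97, 7.24, 7.72 and 7.69 in aspartame 1 to 4, with a difference of 0.06 (limma adjusted p = 0.746) in 7 libraries. That of *Setdb1*, the H3K9 methyltransferase it brings, was -0.05 (SE 0.071, limma adjusted p = 0.659). The genes that rose include *Ehmt2*, another H3K9 methyltransferase (0.55, limma adjusted p = 0.0138), and the NuRD subunits *Chd3* (0.52, limma adjusted p = 0.0163), *Chd4* (0.33, limma adjusted p = 0.0217) and *Mbd3* (0.58, limma adjusted p = 0.0225). Other NuRD subunits measured were not called and went both ways, from -0.19 for *Rbbp4* (limma adjusted p = 0.124) to 0.33 for *Mta1* (limma adjusted p = 0.064). *Rbbp4* and *Mta1* were named after their values were seen. Transcripts of *Ehmt2*, *Chd3*, *Chd4* and *Mbd3* were 60.8%, 56.1%, 52.6% and 62.9% G and C. After the GC step 0 of the 27 passed the test, and the differences of these 4 were 0.22, 0.22, 0.19 and 0.33 (limma adjusted p of 0.0830, 0.160, 0.0934 and 0.0793). With all 8 libraries 0 passed, and 1 of the 27 had an unadjusted p under 0.05 from limma, beside 4.3% of all genes. All 4 calls were also lost without water 3 or water 4, those of *Ehmt2*, *Chd4* and *Mbd3* without aspartame 4, that of *Chd4* without water 2 and that of *Mbd3* without aspartame 1, with the largest adjusted p at 0.0558 for *Ehmt2*, 0.0631 for *Chd3*, 0.0812 for *Chd4* and 0.0809 for *Mbd3*.

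Neighbours on a chromosome were compared next, because KRAB genes lie in clusters. The largest run, with gaps of at most 1000000 bases between members, held 11 KRAB members on chromosome 17 from 21008903 to 23193252, *Zfp160* and *Zfp943* among them. All 11 were below 0 in the 7 libraries, from -0.29 to -0.08, and none was called. Their median GC content was 37.6%, and in aspartame 2 their median was 0.451 above the plain water mean. In the lowest GC bin of all members, 36 of 39 were below 0 (92.3%), beside 50.9% of all genes. After the GC step the differences of the 11 were from -0.18 (*Zfp945*) to 0.07 (*Zfp944*). A run of 5 KRAB members on chromosome 9 from 19622102 to 20605409, which holds *Zfp846*, was also below 0 throughout (median -0.238), with a median of 0.364 above plain water in aspartame 2. Its median GC content was 42.2%, and 34 of 39 members in the second GC bin (40.4 to 44.5%) were below 0. After the GC step this run was at -0.47 (*Zfp846*) to -0.02 (*Zfp266*). In contrast, a run of 7 KRAB members on chromosome 17 from 32765496 to 33358878 had 4 below 0 (median -0.045). The median GC content of that run was 40.0%. The other runs of at least 4 members were on chromosome 7. A run of 9 members had 7 below 0 (median -0.033). From 41633203 to 43593235 a run of 4 had all below 0 (median -0.233), and another of 4 had 2 below 0 (median -0.059). Copies within a run can share reads. In 23 members over 10% of the 31-base words occur in transcripts of other genes, and in 3 members over 50%, but among the 12 called members the highest share was 2.7%.

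The tissue markers were those of brain. All 12 neuronal and amygdala markers and all 4 astrocyte, 4 oligodendrocyte and 4 microglia markers had a mean rlog of at least 3. The summed level of the neuronal markers was 13.72 to 13.92 in plain water, 13.91 to 14.00 in aspartame 1, 3 and 4 and 13.89 in aspartame 2 on the log2 scale, and 1 of the 12 was called higher. The oligodendrocyte markers were at 12.05 to 12.42 in plain water, 12.22 to 12.99 in aspartame 1, 3 and 4 and 12.02 in aspartame 2, and 1 of the 4 was called higher. Choroid plexus markers ranged from 6.91 to 10.36 among plain water libraries. Only 2 of these 4 markers had a mean rlog of at least 3, the level needed for the test, and none was called. All 3 endothelial markers had such a mean, with a summed level of 8.58 to 8.99 in plain water, and none was called. The part of cell composition in the differences of the zinc finger genes was not tested.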

How the data were processed

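RNA of the amygdala of 8 male mice was measured in 8 libraries. Per the labels and methods, the authors prepared stranded mRNA libraries, sequenced them as paired reads of 150 bases on a NovaSeq, aligned them with STAR to mm10 (GRCm38), and counted them with Salmon. The authors deposited 1 log2 value per gene and library, read here as DESeq2's rlog because the table is so named. Options are not given in the sources used here. No counts were used, so depth and counting error are unknown. Replicates are separate mice. The members and gene lists were chosen with earlier results of these data known.

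Genes with a mean of at least 3 and varying values were tested with R 4.3.3 and its package limma 3.58.1, with moderated variances that follow a mean-variance trend, adjusted by Benjamini-Hochberg over all genes tested, and called at an adjusted p under 0.05. GC content, length, coordinates and coding sequence are from GENCODE M21, using the transcript with the longest coding sequence. They were found for 12787 of the 12870 genes tested (99.4%) and for all 156 members. A finger is 2 cysteines 2 to 4 residues apart, 12 residues, and 2 histidines 3 to 5 residues apart. A pattern can miss a KRAB domain. In the GC step, the dependence on GC content and log length was taken out of each library with natural splines of 5 degrees of freedom each. Named were the called members, the 5 with the highest mean, 3 on each side of the limit of 6, 4 by the deviation of aspartame 2, 3 by the smallest p over 8 libraries, up to 4 members of each role list by the smallest p, and *Trim28*, *Setdb1* and up to 4 called genes of the machinery. The fit was tested on simulated data with noise drawn separately for each gene. In 7 libraries it recovered 60% of changes of 0.5 and 99% of changes of 1, with 5 false calls among 164. In all 8 it recovered 40% and 95%, with 10 false calls among 145. The simulated libraries shared no trend such as that with GC content, so the simulation does not cover calls that follow one. Alternatives were each library left out, other minimum means, no trend, other scalings, library weights, a replicate block, age and the GC step. Tables and plots were made in Python 3.11.15 (pandas 2.3.3, numpy 2.4.6, matplotlib 3.10.9).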

Additional observations from a re-analysis of the deposited data

Results flagged for a closer look

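For 46 named genes the lowest and highest of the 4 libraries in each group were examined, and in 5 of 92 groups 1 library lay far from the rest. About 1 in 20 groups would be marked in this way without any cause if genes were independent and not chosen by their values. Some of these genes, *Zfp943* among them, were chosen by the value of aspartame 2, and all share libraries. That rate is therefore no measure for them. In *Zfp943* aspartame 2 was high at 7.86, with the other aspartame libraries at 6.94 to 7.06. In *Zfp516* aspartame 2 was low at 5.81, with the others at 6.27 to 6.32. Water 1 was low in *Zfp638* at 9.19 (others 9.43 to 9.45), in *Zfp932* at 7.44 (others 7.69 to 7.74) and in *Zfp868*, just below the limit for members, at 5.96 (others 6.04 to 6.06).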

How the results depend on the processing

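The number of members called in 7 libraries, 7 higher and 5 lower, depended on the libraries. It was 0 and 0 with all 8 libraries and with mice of 187 d only, 2 and 0 when age was a covariate, 2 and 3 after the GC step, and 1 and 1 after the GC step with the replicate block (chosen after seeing the data). Mice of 187 d only were water 1 and 3 against aspartame 3 and 4. There the 7 higher members were at 0.29 (*Zfp335*) to 0.60 (*Zfp651*), and the 5 lower ones at -0.41 (*Zfp157*) to -0.31 (*Zfp346*). Leaving out 1 library gave 0 to 10 higher and 0 to 14 lower. The counts were 0 and 0 if water 3 or aspartame 4 was left out, 4 and 0 for water 2, 2 and 0 for water 4, 6 and 2 for aspartame 1, 6 and 6 for water 1, and 10 and 14 for aspartame 3. No minimum mean, a minimum of 5, no mean-variance trend, a median shift and quantile normalization gave 5 to 7 higher and 4 to 7 lower. The 12 called members kept their sign under all of these. With all 8 libraries, where 0 were called, library weights gave 2 higher and 1 lower, and leaving out 1 library gave 0 to 7 higher and 0 to 5 lower, the highest without aspartame 2. The GC step there (chosen after seeing the data) gave 0 and 0. Over all genes, 785 were higher and 349 lower in 7 libraries, against 0 with all 8 libraries, 200 and 22 with age, 11 and 1 at 187 d and 131 and 79 after the GC step. The causes of these changes were not tested.

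Members that were not called changed the sign of small differences. With all 8 libraries, *Zfp932* was at 0.10 and *Trim28* at -0.08, and at 187 d they were at 0.05 and -0.09. After the GC step *Zfp932* was at 0.16, *Trim28* at -0.22 and *Zfp687* at -0.00, and with the replicate block added at 0.16, -0.26 and -0.01. *Zfp445* was at -0.03 after quantile normalization and *Zfp57* at -0.04 with age and -0.09 with the replicate block. Leaving out 1 library gave -0.01 to 0.10 for *Zfp445*, -0.13 to 0.05 for *Zfp932*, -0.09 to 0.09 for *Zfp57* and -0.03 to 0.12 for *Trim28*.

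Replicate numbers are shared by the groups, but nothing says that they pair mice. Deviations of same-numbered libraries correlated at 0.31, 0.34 and -0.04 for numbers 1, 3 and 4 without aspartame 2 and at 0.53, 0.15, 0.06 and -0.10 for numbers 1 to 4 with it. With the replicate block limma called 7 members higher and 4 lower in the libraries 1, 3 and 4 of both groups, and 0 and 0 in all 8. In the former, 10 of the 12 calls were kept, those of *Zfp609* (adjusted p = 0.0577) and *Zfp940* (adjusted p = 0.0510) were lost, and *Zfp462* was called (0.34, adjusted p = 0.0218). Depth is not known and sets no limit that can be given.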

Other observations

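Other zinc finger genes of the same libraries gave the following values without aspartame 2. Of 157 numbered Zfp genes with a mean rlog of 3 to under 6, 6 were called higher and 2 lower by limma, with a median difference of -0.033, while 6.1% of all genes were called higher and 2.71% lower. Within them, 73 of 99 with a KRAB pattern were below 0 and 35 of 55 without one were above 0, at median GC contents of 42.9% and 55.6%. Of 37 Zbtb genes, which pair fingers with a BTB domain, 3 were called higher and 0 lower (median 0.035), and of 20 Zkscan and Zscan genes, which carry a SCAN domain, 1 was called higher and 0 lower (median -0.018). Aspartame 2 was the highest library in 57.6% of the 99, in 5.45% of the 55, in 27.0% of the Zbtb genes and in 35.0% of the Zkscan and Zscan genes. With all 8 libraries 0 of these genes passed the test. An unadjusted p under 0.05 from limma was found for 8 of 157, 3 of 37 and 1 of 20, beside 4.3% of all genes.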
